A study of Homo sapiens with 4 samples.

Results

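The microsomal fatty acid elongation genes are described here by c-MYC binding in 4 lists of peaks from chromatin immunoprecipitation followed by sequencing (ChIP-seq). The genes were chosen as enzymes of the pathway, and they are 10 of the 19702 protein-coding genes with a protein-coding transcript in GENCODE version 44. They are ELOVL1, ELOVL2, ELOVL4, ELOVL5, ELOVL6, ELOVL7, HSD17B12, TECR, HACD2 and HACD3. MIA PaCa-2 cells, an established line from a human pancreatic ductal adenocarcinoma, were kept for 8 h in DMSO, in AMG510 at 100 nM or in the MEK inhibitor trametinib at 10 nM. Each treatment gave 1 library with a c-MYC antibody, and DMSO gave 1 more with non-specific immunoglobulin (IgG). The treatments address how c-MYC binding at lipid synthesis genes responds to these drugs. Results hold for 1 cell line, 1 time and 1 dose per drug. No group was replicated, so every difference below is one between 2 libraries, with no replicate check and no p-value. Peak lists carry no expression values, and the identity of the line was not checked here.

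Fatty acids are lengthened at the endoplasmic reticulum in a cycle of 4 reactions on an acyl chain bound to coenzyme A. An ELOVL enzyme condenses the chain with malonyl-CoA, HSD17B12 reduces the product, a HACD enzyme removes water, and TECR carries out the last reduction. The ELOVL enzymes set which chains enter. ELOVL1, ELOVL6 and ELOVL7 act on saturated and monounsaturated chains, ELOVL2 and ELOVL5 on polyunsaturated ones, and ELOVL4 makes chains of very great length. c-MYC binds DNA together with MAX, with a preference for the E-box CACGTG, and much of its binding in growing cells lies at active promoters.

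A promoter peak was defined as one whose summit, the position of its highest pileup, lay no more than 1 kb from where a protein-coding transcript of the gene starts (its TSS, transcription start site). Other peaks in the annotated gene or within 10 kb upstream were counted separately. Over all protein-coding genes, promoter peaks were 4621 of the 9552 c-MYC peaks in DMSO, 2808 of 10378 in AMG510 and 2128 of 5431 in trametinib. The pileup is given as tags at the summit, a whole number recovered from the deposited fold enrichment and p-value, with its exact Poisson 95% interval. Intervals cover counting error only. Between 22700000 and 24800000 tags entered peak calling per library.

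Of the 10 genes, 4 had a promoter peak in some c-MYC list, and none of these peaks was found at the same place in another list. ELOVL1 and HACD2 had one in DMSO and in AMG510, and ELOVL7 and TECR had one in trametinib. The IgG list had none at any of the 10. Over all genes, 53.6% of the 9557 promoter peaks of the c-MYC lists were overlapped by a peak of another list, and 48.2% of those with 10 to 20 tags, the range that holds all 6 peaks here. Sequences from within these peaks are shown with their E-boxes. The promoter calls rest on the distance from summit to TSS and used no sequence. All are from GRCh38 and written 5′ to 3′ in the direction of transcription, with CACGTG or the non-canonical E-box CACGCG (in either orientation) in capitals.

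The ELOVL1 summits lie in different stretches, each with its own CACGTG. The first sequence below is chr1:43367179-43367329 around the DMSO summit, which is all intronic. The second is the 30 bases of chr1:43367870-43367899 around the E-box inside the AMG510 peak.
ELOVL1 DMSO: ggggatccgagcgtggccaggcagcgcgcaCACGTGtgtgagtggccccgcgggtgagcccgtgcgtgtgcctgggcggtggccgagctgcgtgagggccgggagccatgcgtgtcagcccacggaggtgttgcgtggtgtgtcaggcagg
ELOVL1 AMG510: ccacggactctcCACGTGccggcgccccct

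The HACD2 summits lie on opposite sides of the TSS. The DMSO sequence, chr3:123585584-123585705, is upstream of the gene and has neither motif. The AMG510 sequence, chr3:123584920-123585000, lies in coding exon 1 and has CACGCG.
HACD2 DMSO: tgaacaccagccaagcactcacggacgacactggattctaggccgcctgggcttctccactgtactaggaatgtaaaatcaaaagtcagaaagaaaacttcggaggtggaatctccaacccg
HACD2 AMG510: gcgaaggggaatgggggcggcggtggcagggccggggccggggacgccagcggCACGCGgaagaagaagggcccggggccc

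The trametinib summits of ELOVL7 (intron 1, chr5:60843829-60843974) and TECR (5′ untranslated region of exon 1, chr19:14529667-14529695) are shown in the same way. The ELOVL7 stretch holds the reverse complement of CACGCG, and the TECR stretch holds neither motif.
ELOVL7 trametinib: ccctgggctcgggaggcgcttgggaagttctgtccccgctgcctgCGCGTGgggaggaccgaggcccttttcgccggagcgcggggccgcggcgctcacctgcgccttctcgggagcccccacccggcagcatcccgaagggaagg
TECR trametinib: gcggagcagtagccgccgtgggagggagc

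At ELOVL1, the elongase of saturated very long chains that feed sphingolipids, the DMSO peak ran from 43367147 to 43367418 on chromosome 1. Its summit lay 757 bp downstream of the canonical TSS, in intron 1, and held 20 tags (95% interval 12.2 to 30.9) over a background rate of 2.89. Its fold enrichment of 5.41 exceeded 76.2% of the DMSO peaks. The nearest protein-coding TSS was 484 bp away. This was the highest pileup of any peak at the 10 genes.

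The AMG510 peak of ELOVL1 ran from 43367803 to 43367959, with its summit 89 bp downstream of the TSS in the 5′ untranslated region of exon 1. It held 12 tags (6.20 to 21.0) over the same background rate of 2.89. Its fold enrichment of 3.34 exceeded 4.09% of the AMG510 peaks, near the bottom of that list. A gap of 384 bp lay between the peaks, and their summits were 668 bp apart. The E-box nearest to the DMSO summit was 43 bp away and that nearest to the AMG510 summit 37 bp away. Those are the E-boxes in the sequences above, and no other CACGTG was present within 1 kb of the canonical TSS.

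In the trametinib list the nearest summit to an ELOVL1 TSS was 340 kb away. The pileup there is not known, because a list gives none where no peak was called. At a background rate of 2.89, 11 tags would have been needed for a call in trametinib and 10 in AMG510. With the same background rate, a pileup just below these limits at the DMSO summit would have gone uncalled in the drug libraries, where DMSO had 20 tags.

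HACD2, a 3-hydroxyacyl-CoA dehydratase of the cycle, had promoter peaks of equal height in DMSO and AMG510. The DMSO peak, from 123585584 to 123585775 on chromosome 3, had its summit 577 bp upstream of the TSS, and held 15 tags (8.40 to 24.7). Its fold enrichment, 4.04, exceeded 25.5% of the list. The AMG510 peak, from 123584831 to 123585040, had its summit 93 bp downstream of the TSS, and also held 15 tags. Its fold enrichment, 4.13, exceeded 33.1% of the list. A gap of 543 bp parted them. In trametinib no HACD2 promoter peak was called, and 11 tags would have been needed at either background.

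ELOVL7 and TECR had the opposite pattern by the starts of protein-coding transcripts. The ELOVL7 peak in trametinib, from 60843760 to 60843974 on chromosome 5, had its summit in intron 1, 365 bp downstream of the TSS. It held 14 tags (7.65 to 23.5), and its fold enrichment, 4.59, exceeded 52.4% of the trametinib list. A pileup of 9 tags at that background would have been called in DMSO or AMG510, and none was.

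The trametinib peak of TECR, the enoyl-CoA reductase of the cycle, ran from 14529602 to 14529764 on chromosome 19. Its summit was 87 bp downstream of the canonical TSS and held 15 tags (8.40 to 24.7), and its fold enrichment, 4.32, exceeded 38.1% of the list. It lies 122 bp from a start of DNAJB1, a heat shock co-chaperone gene on the opposite strand, and the peak cannot be assigned to one of the genes. At the background rate of that trametinib peak, 2.71, 10 tags would have been needed for a call in DMSO or AMG510. The counting intervals of all 6 promoter peaks overlapped each other and reached down to between 6.20 and 12.2 tags.

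**Figure D1:**
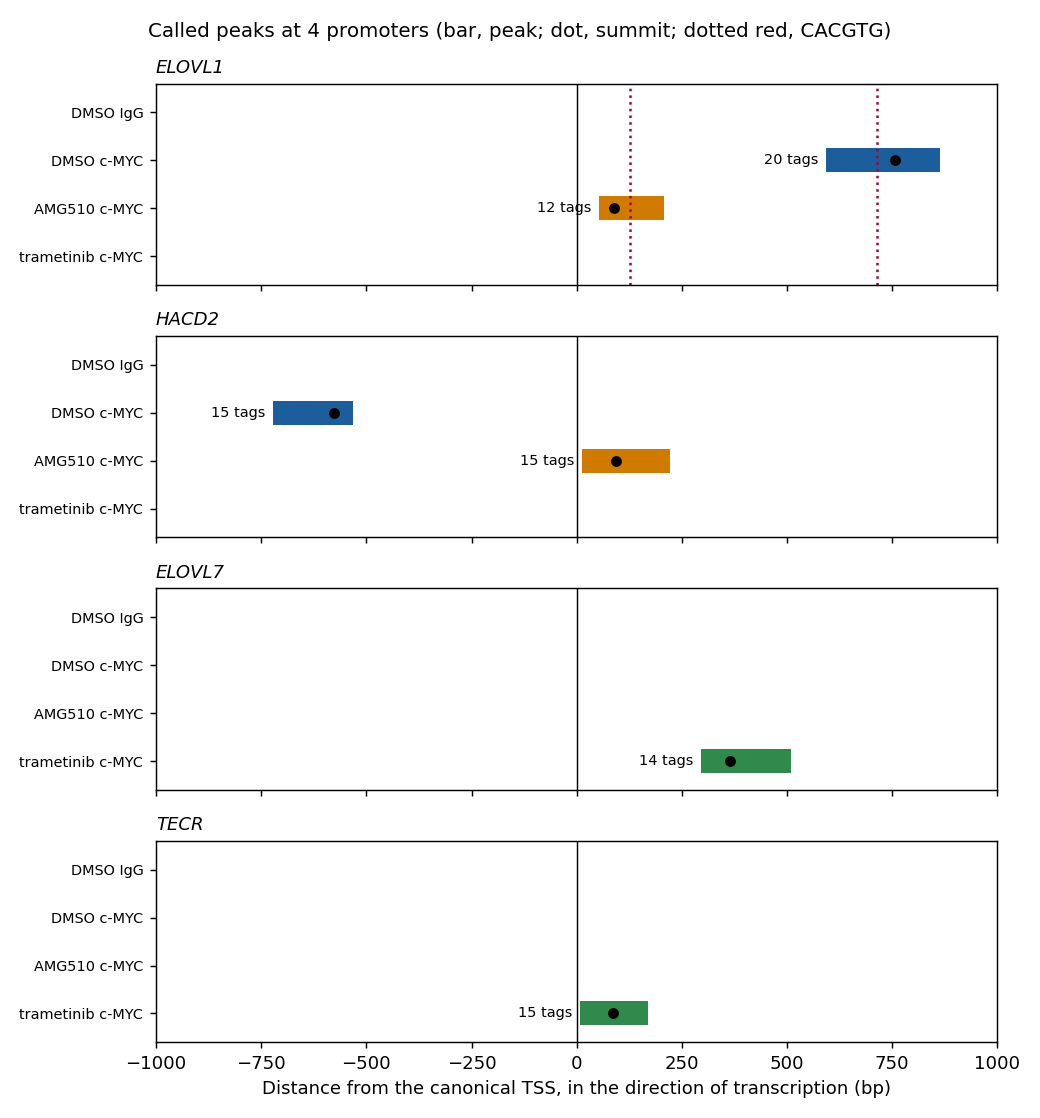
Called peaks within 1 kb of the canonical TSS of ELOVL1, HACD2, ELOVL7 and TECR in each of the 4 libraries, against distance from the TSS in bp; bars are peaks, dots are summits with their tags, and dotted lines mark CACGTG. The DMSO and AMG510 peaks of ELOVL1 and of HACD2 do not overlap, and each ELOVL1 peak holds 1 E-box.

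**Figure D2:**
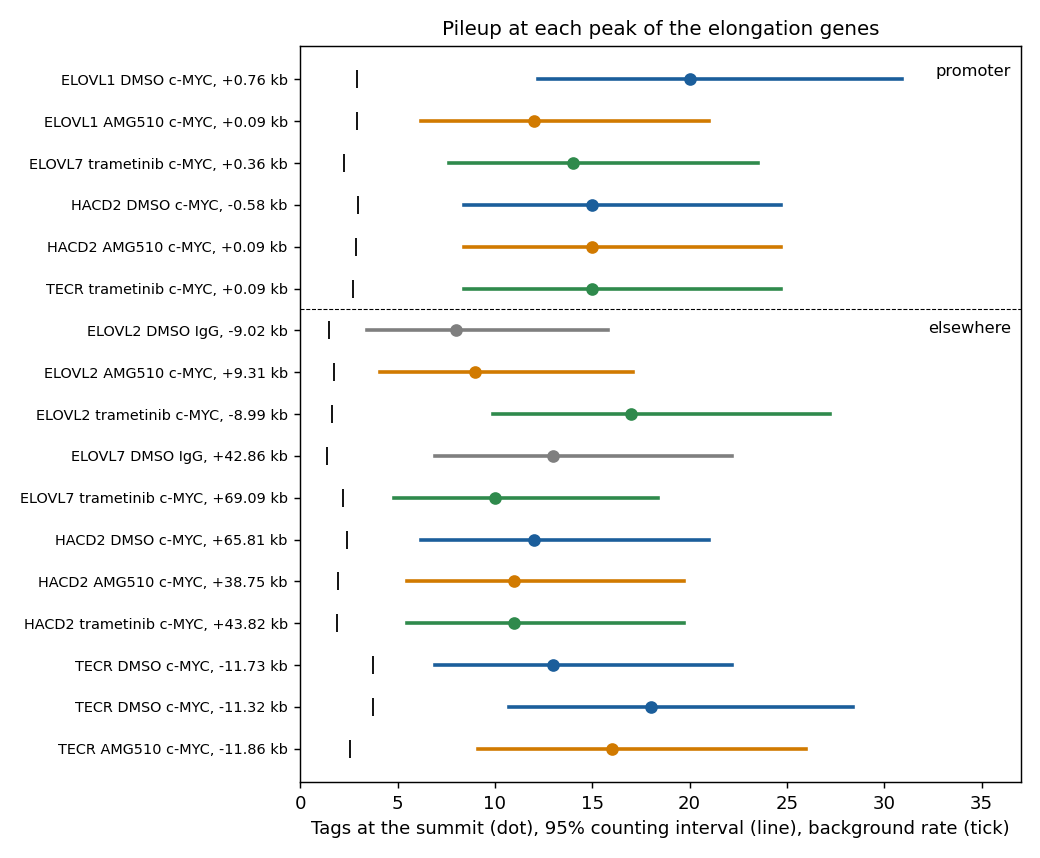
Tags at the summit of all 17 peaks at the elongation genes (dot), with the exact Poisson 95% interval (line) and the background rate (tick), by gene, library and distance of the summit from the canonical TSS. The promoter peaks hold 12 to 20 tags and their intervals overlap.

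The counts can be read against all genes of the same list. A promoter peak was present at 2 of the 10 in DMSO, where 24.2% of all protein-coding genes had one. It was present at 2 of 10 in AMG510, against 15.3% of genes, at 2 of 10 in trametinib, against 11.8%, and at 0 of 10 in IgG, against 0.594%. With 10 genes, each of these counts is within 1 gene of what the share over all genes gives. The number of elongation genes with a promoter peak was thus 2 in each c-MYC list, with ELOVL1 and HACD2 in both DMSO and AMG510 and other genes in trametinib.

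The patterns themselves were not rare. A promoter peak in DMSO and AMG510 but not trametinib, as at ELOVL1 and HACD2, was found at 945 genes (4.80%), and one in trametinib alone, as at ELOVL7 and TECR, at 511 genes (2.59%). None of the 10 was among the 1102 genes (5.59%) with a promoter peak in every c-MYC list. These counts use protein-coding starts, and with the starts of all transcripts TECR would have a promoter peak in every c-MYC list. The DMSO and AMG510 summits that would be added lie 31 and 36 bp from starts of DNAJB1. They are nearer to these than to any TECR start, and cannot be assigned to TECR. The remaining 6, like 68.3% of genes, had no promoter peak in any c-MYC list. Peaks that do not overlap at a shared promoter were the smaller part over all genes. Of 2047 genes with a promoter peak in both DMSO and AMG510, 334 (16.3%) had no overlapping pair, and ELOVL1 and HACD2 were both among these.

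**Figure D3:**
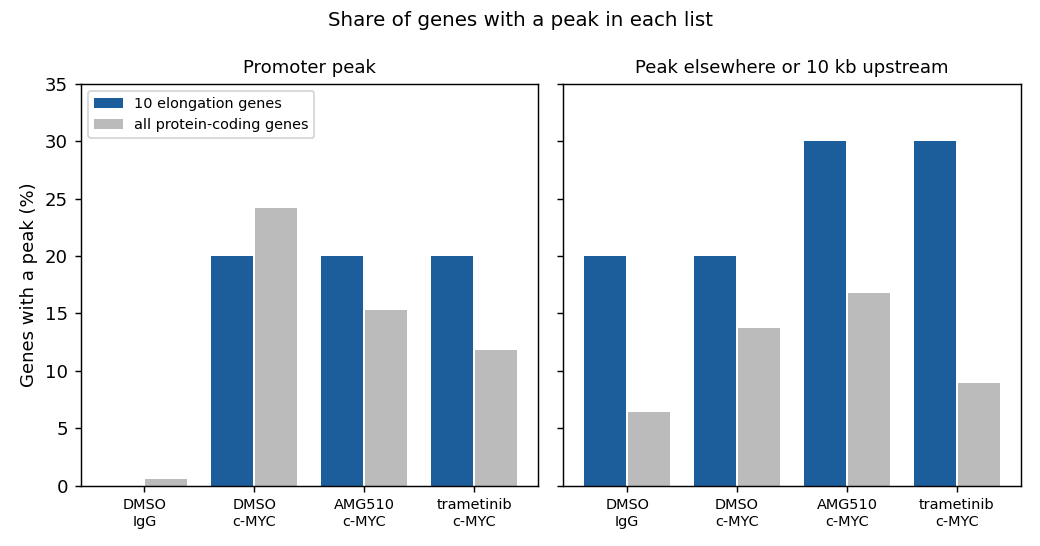
Percentage of genes with a promoter peak (left) and with another peak in the gene or within 10 kb upstream (right) in each library, for the 10 elongation genes (blue) and all 19702 protein-coding genes (grey). A bar of 20% stands for 2 genes and one of 30% for 3.

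Away from promoters, HACD2 had 1 peak in each c-MYC list, all in introns and all at different places. They lay 65.8 kb downstream of the TSS in DMSO (intron 4, 12 tags, interval 6.20 to 21.0), 38.8 kb downstream in AMG510 (intron 3, 11 tags, 5.49 to 19.7) and 43.8 kb downstream in trametinib (intron 3, 11 tags). Their fold enrichments of 3.80, 4.07 and 4.13 were above those of 15.1%, 30.1% and 29.1% of their lists.

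At TECR, 2 DMSO peaks and 1 AMG510 peak fell inside the annotated gene but between 11.3 and 11.9 kb upstream of its canonical TSS. Their summits lay 31 and 128 bp (DMSO) and 36 bp (AMG510) from starts of DNAJB1. The DMSO peak from 14517626 to 14517909 (13 tags, 6.92 to 22.2) and the AMG510 peak from 14517679 to 14517862 (16 tags, 9.15 to 26.0) shared 184 bp, with summits 130 bp apart. These were the only c-MYC peaks at the 10 genes that overlapped between c-MYC lists, 2 of 15, where 25.9% of all 25361 c-MYC peaks overlapped a peak of another c-MYC list. Their fold enrichments, 2.97 and 4.78, were above those of 0.22% and 67.8% of the lists. The second DMSO peak, from 14518167 to 14518502, held 18 tags (10.7 to 28.4) and was overlapped in no other list. Starts of TECR transcripts that are not protein-coding lay 781 bp and 651 bp from the overlapping summits, so both would count as promoter peaks if all transcripts were used. With the span of the canonical transcript alone, none of the 3 would count for TECR.

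ELOVL2, which lengthens polyunsaturated chains towards docosahexaenoic acid, had the peak with the largest fold enrichment of the 15, and it coincided with an IgG peak. The trametinib peak, from 11053209 to 11053417 on chromosome 6, had its summit 8.99 kb upstream of the TSS, where it held 17 tags (9.90 to 27.2). The fold enrichment of 6.80 exceeded 94.6% of the list. An IgG peak from 11053304 to 11053446 shared 114 bp with it, with its summit 38 bp away and 8 tags (3.45 to 15.8). Over the whole trametinib list, 3.39% of peaks were overlapped by an IgG peak. The 81 bases around the trametinib summit, chr6:11053251-11053331, are shown because both antibodies gave a call there, and they hold neither motif.
ELOVL2 upstream: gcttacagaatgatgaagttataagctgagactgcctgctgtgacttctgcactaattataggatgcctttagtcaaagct

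ELOVL2 also had an AMG510 peak in intron 1, 9.31 kb downstream of the TSS, with 9 tags (4.12 to 17.1) and a fold enrichment of 3.67. ELOVL7 had a trametinib peak in intron 3, 69.1 kb downstream of the TSS, and it held 10 tags (4.80 to 18.4) at a fold enrichment of 3.42, near the bottom of the list. An IgG peak in intron 1 of ELOVL7, 42.9 kb downstream, had a larger fold enrichment, 5.90, with 13 tags (6.92 to 22.2). The c-MYC peaks away from promoters held 9 to 18 tags, so the IgG peak of ELOVL7 lay within their range.

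A peak elsewhere in the gene or within 10 kb upstream was present at 2 of the 10 genes in DMSO, against 13.7% of all protein-coding genes, at 3 in AMG510, against 16.8%, at 3 in trametinib, against 8.98%, and at 2 in IgG, against 6.39%. The 10 genes are long, with a median of 72.7 kb against 27.3 kb over all genes. Per length of gene and upstream stretch, they had 3.35 such peaks per Mb in each c-MYC list (95% interval 0.691 to 9.79, from 3 peaks) and 2.23 in IgG (0.270 to 8.07). Over all genes the c-MYC densities were 2.15 (DMSO), 2.82 (AMG510) and 1.35 (trametinib) and the IgG density 0.937, each inside the interval of the 10 genes.

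**Figure D4:**
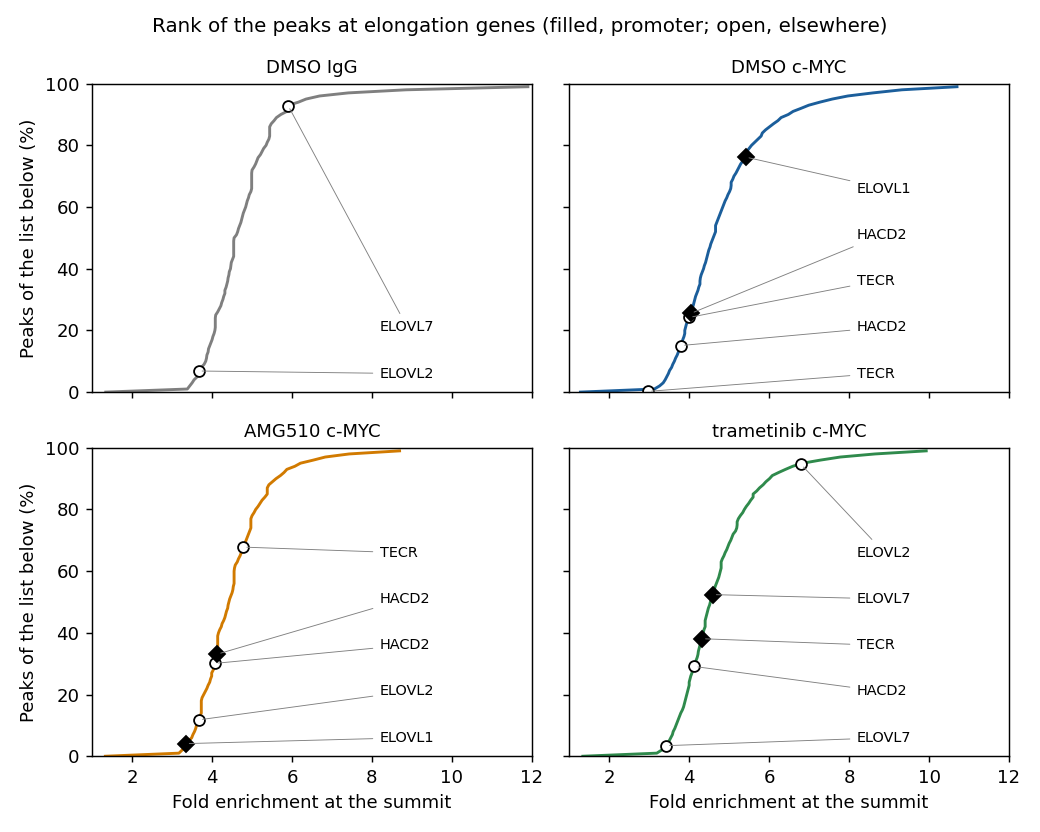
Fold enrichment at the summit against the percentage of peaks of the same list that lie below it, for each library (line, the whole list up to its 99th percentile), with the peaks at the elongation genes marked (filled, promoter; open, elsewhere). Above a fold enrichment of 5 lie ELOVL1 in DMSO, ELOVL2 in trametinib and ELOVL7 in IgG.

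The remaining genes, ELOVL4, ELOVL5, ELOVL6, HSD17B12 and HACD3, had no peak in any of the 4 lists by either rule. HSD17B12 encodes the ketoacyl-CoA reductase that the whole cycle shares, and it lay furthest from any call, with the nearest c-MYC summits 321 kb from a TSS in DMSO, 310 kb in AMG510 and 1930 kb in trametinib. At ELOVL6, which takes palmitate to stearate, the nearest summits were 383, 57.4 and 765 kb away. At HACD3 they were 60.1, 223 and 225 kb away and at ELOVL4 42.7, 72.0 and 172 kb. ELOVL5 had an AMG510 peak with 12 tags and a fold enrichment of 3.82 just outside the limit, with its summit 10101 bp upstream of the gene, and none nearer than 267 kb in DMSO or trametinib. No promoter summit lay close to the 1 kb limit. By the nearest protein-coding TSS, on which the limit was set, the farthest was that of HACD2 in DMSO, at 577 bp.

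E-boxes lay at genes with and without peaks. CACGTG, which is its own reverse complement, occurred within 1 kb of the canonical TSS in 3 of the 10 genes, ELOVL1, ELOVL4 and ELOVL5, against 29.2% of all genes, and within 250 bp in the same 3, against 2159 of the 19702. ELOVL4 has it 44 bp and ELOVL5 209 bp upstream of the canonical TSS, and neither had a peak. Both are printed with 12 bases on each side, to be set beside those of ELOVL1 above (chr6:79947582-79947611 for ELOVL4 and chr6:53349144-53349173 for ELOVL5).
ELOVL4: cccgcgcgcggcCACGTGacgccggctgag
ELOVL5: atttcccagagaCACGTGgaaccgaggggc

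Within 100 bp of a summit, CACGTG was present in 1 of 5 peaks at these genes in DMSO, 1 of 5 in AMG510 and 0 of 5 in trametinib, all of them at ELOVL1. Over the whole lists the shares were 11.3%, 6.18% and 9.15%, and 2.56% in IgG. With CACGCG on either strand counted as well, a window with both being counted once, HACD2 in AMG510 and ELOVL7 in trametinib were added. The shares over the lists then became 22.8%, 12.4% and 17.7%, and to 3.14% in IgG. In the RefSeq table of promoters on GRCh38.p14, which runs from 250 bp before to 50 bp after a start and matched 9 of the 10 genes, ELOVL4 and ELOVL5 held CACGTG, and 7.26% of all 35116 promoters did. The windows of the 9 genes had a GC content between 57.3% (ELOVL5 and ELOVL6) and 83.7% (ELOVL2), where the median over the table was 58.7%.

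Related genes of fatty acid metabolism had promoter peaks in numbers near or somewhat below the shares over all genes, which was not tested. Among 4 further microsomal elongation genes (ELOVL3, HACD1, HACD4 and TECRL), 5 desaturases (SCD, SCD5, FADS1, FADS2 and FADS3), 5 acyl-CoA synthetases (ACSL1, ACSL3, ACSL4, ACSL5 and ACSL6) and 6 genes of mitochondrial elongation (HADHA, HADHB, HADH, ECHS1, ACAA2 and MECR), 4 of the 20 had a promoter peak in DMSO (24.2% of all genes did), 2 in AMG510 (15.3%), 1 in trametinib (11.8%) and 0 in IgG (0.594%). In DMSO these were HACD1, the muscle-enriched dehydratase (19 tags, 11.4 to 29.7, summit 71 bp upstream of the TSS), SCD, the stearoyl-CoA desaturase (15 tags, 8.40 to 24.7, 38 bp downstream), ACSL3 (17 tags, 9.90 to 27.2, 151 bp downstream) and ECHS1, the enoyl-CoA hydratase (17 tags, 39 bp downstream). In AMG510 they were ACAA2 (10 tags, 4.80 to 18.4) and HADHB (20 tags, 12.2 to 30.9), the latter through a transcript start 1933 bp upstream of the canonical one. In trametinib it was FADS3 (12 tags, 6.20 to 21.0). None of these 7 peaks was overlapped by a peak of another list, where 48.2% of all c-MYC promoter peaks of like height were. By list, that share was 32.8% in DMSO, 58.4% in AMG510 and 63.9% in trametinib.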

How the data were processed

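ChIP-seq peak lists of 4 MIA PaCa-2 libraries were used, grouped by title. Per their methods, the authors trimmed reads with Trimmomatic (0.39 in the submitters' processing notes), aligned them to GRCh38 with BWA 0.7.17, filtered on mapping quality with SAMtools 1.9, removed duplicates, converted alignments to intervals with bedtools 2.27.1 and called peaks in each library with MACS2 2.2.7.1 at its default limit of q = 0.05, before removing an exclusion list. The deposited score is 10 times the −log10 q-value without its decimals. Fold enrichment was deposited as a ratio of pileup to background after the same constant was added to each, so it is lower than their plain ratio. The files also hold −log10 of each p-value and of each q-value, as deposited by the authors.

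Solving fold enrichment and p-value together gave whole-number pileups in 100% of peaks of each list. Backgrounds above the genome-wide rate were whole multiples (within 0.01) of 1 tag in a 10 kb window in at least 99.7% of peaks, so each list was treated as called against its own library. Depth was derived with a genome size of 2700000000 bp. Mates of 1 fragment may each be a tag, so counting intervals are too narrow. All 95 contigs of the lists are in the GRCh38 reference, and 4 of 28327 peaks run past the end of their contig. An overlap was 1 bp or more, and shares of overlapped peaks over the whole lists were added after the members' overlaps were seen. The number of tags needed for a call uses the smallest −log10 p-value of each list. Positions are 1-based, and exons, introns and distances refer to the canonical transcript. Analyses used Python 3.11.15, SciPy 1.17.1 and pysam 0.24.0 and were checked on planted peaks and pileups. The named genes were the 10 members with all their peaks, genes with a TSS within 1 kb of those summits, and those of 4 pathway lists with a promoter peak. Members and lists were chosen with earlier results of these data known.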

Additional observations from a re-analysis of the deposited data

How the results depend on the processing

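No paired analysis was possible because no treatment was replicated, so leaving out a replicate was not possible either. Of 63 values under alternatives, for 13 counts, 42 stayed within 1.5 times of the reported count, 19 were lower and 2 higher. A reported count of 0 cannot fall under a stricter setting, so some of the 42 could not have moved. No difference was tested. Starts of all transcripts gave 3 genes with a promoter peak in DMSO and 3 in AMG510. TECR was the added gene, through the peaks that lie nearer to starts of DNAJB1. A fold enrichment above 5 left 1 gene with a promoter peak in DMSO (ELOVL1) and 0 in AMG510 and trametinib, as did a score above 60, and a summit within 500 bp of a TSS left 1 in DMSO. With fold enrichment above 5, genes with a peak elsewhere numbered 0 in DMSO and AMG510, 1 in trametinib (ELOVL2) and 1 in IgG (ELOVL7), and with a score above 60, 0, 0, 1 and 0. The IgG count was also 1 with 5 kb upstream and 1 with the gene body alone. The span of the canonical transcript, chosen after the data were seen, left 1 gene with a peak elsewhere in DMSO, because the TECR peaks lie outside it. Among DMSO peaks at these genes, only that of ELOVL1 had a fold enrichment above 5, and as given above no AMG510 peak overlapped it. Counting CACGCG too gave 2 peaks with a motif in AMG510 and 1 in trametinib. The 15 c-MYC peaks at these genes hold 9 to 20 tags, close to the 9 to 11 needed for a call at the backgrounds of the promoter peaks, so presence or absence in a list is a coarse measure here.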
